A study of Mus musculus with 6 samples.

Results

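The interval described here is the stretch of mouse chromosome 6 around Prss37, the gene deleted in the knockout mice of this study, from 35 to 46 Mb on the mm9 build. Its members were all non-control array probes whose lower coordinate, as printed in the scanner files, lay in that interval. The rule used position alone and found 213 of the 41174 probes on the array, and a further 2069 probes lay elsewhere on chromosome 6. Of the 213, 158 could be given a RefSeq symbol, for 99 genes, and 55 kept the name of the array's design. By the kind of sequence they were designed on, 126 members target RefSeq transcripts, 57 cDNA or EST clones and 15 Ensembl transcripts, and 15 carry only a cluster or probe name.

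Total RNA from whole testes of male mice on the C57BL/6 background, 6 to 8 weeks old, was hybridised to single-colour Agilent arrays. There were 2 groups of 3 animals: Prss37KO, which is Prss37-/- in the design text, and WT, with no other allele or agent given for either group. The description field of the knockout samples reads Prss55KO where the title and source name read Prss37KO, and the samples were grouped by title. The labels give neither the deleted part of Prss37, nor how the deletion was made, nor how far the mice had been bred to the named background. Whether the WT animals were littermates of the knockouts is also not given.

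Prss37 encodes a trypsin-like serine protease family protein made in the testis, and its loss is known to impair male fertility. In the mouse genome it lies next to a cluster of trypsin family genes. That cluster includes the pancreatic trypsinogens, whose genes are interspersed with the gene segments of the T cell receptor beta locus. Around it lie unrelated genes such as Mgam, which encodes an intestinal enzyme that splits starch-derived sugars, the kinase gene Braf, and clusters of taste and olfactory receptor genes.

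Signals are given here as scaled signals, meaning the processed intensity of a probe multiplied by the mean 75th percentile of the 6 arrays over that of its own array. A difference is knockout minus wild type on the log2 scale after each array's 75th percentile was taken off, so a negative difference is a lower level in knockout. Members are single probes, so a gene with several probes has several values. Levels of different probes cannot be compared with each other. Testing required a signal well above background on every array of at least 1 group, and a tested probe was called at an adjusted p under 0.05 in limma, with Benjamini-Hochberg adjustment over the 28301 probes tested.

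Of the members, 124 were tested (58.2%, against 68.7% of all probes), and 89 were not. In the tested set, 116 were well above background on all 6 arrays and 8 passed through 1 genotype only. On each array 69.2% to 71.4% of spots were well above background, and the 75th percentile of the signal was 1550 to 1707. Replicates 1 and 2 of both genotypes shared slide 1, and both replicates numbered 3 were on slide 2. The 6 defining spermatid markers, protamine genes among them, were well above background on all 6 arrays, with a summed scaled signal of 1633410 to 1841860 in knockout and 1650250 to 1729890 in WT. The epididymis markers Crisp1, Lcn5 and Lcn8 were above background on no array.

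The values come from 60-base probes, and those of the 3 called members are printed below with the other Mgam probe, which targets the same transcript and was not called. Each is written 5′ to 3′ as in the scanner files. The Prss37 probe lies at chr6:40464853-40464912 on the minus strand, at position 959 of its transcript. The Mgam probe A_51_P291260 lies at chr6:40718887-40718946 on the plus strand, at transcript position 6252, and A_52_P485850 spans chr6:40716016-40718228, at position 5534. Those 2213 bases are the span of a 60-base probe, so they take in genomic bases that the probe does not hold. The AV209602 probe lies at chr6:44033139-44033198 on the minus strand and was designed on an EST of adult testis, with no RefSeq gene matched.
Prss37 A_51_P114966: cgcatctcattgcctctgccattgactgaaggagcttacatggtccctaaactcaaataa
Mgam A_51_P291260: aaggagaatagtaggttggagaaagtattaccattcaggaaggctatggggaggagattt
Mgam A_52_P485850: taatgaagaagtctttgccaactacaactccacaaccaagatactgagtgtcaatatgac
AV209602 A_52_P838199: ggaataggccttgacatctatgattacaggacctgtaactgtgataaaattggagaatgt

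Knockout against wild type was the comparison the design sets up. In the interval, 3 of 124 tested members were called (2.42%), against 293 of 28301 over the whole array (1.04%) and 18 of 1333 on the rest of chromosome 6 (1.35%). Prss37 and the EST AV209602 fell, and 1 of the 2 Mgam probes rose. On the array as a whole, 132 probes were called higher (0.466%) and 161 lower (0.569%). The members' count was 0 without any 1 of the knockout arrays or without WT replicate 1, where at most 0.120% of all probes were called. It was 5 without WT replicate 2 (4.03%, against 2.79% of all probes) and 2 without WT replicate 3 (1.61%, against 1.31%). The members' share was below that of all probes under a variance trend with robust fitting (4.03% against 5.40%) and with array weights (3.23% against 5.05%). With the slide as a block no member was called, against 0.11% of all probes, and none with the replicate number as a block, against 0.0106%. With the slide as a block adjusted p was 0.053 for Prss37, 0.053 for Mgam and 0.069 for AV209602.

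The targeted gene comes first. The Prss37 probe read 67627, 73862 and 71599 in knockout replicates 1, 2 and 3, and 116195, 107915 and 124454 in the WT replicates. Every knockout array was below every WT array, and all 6 arrays were well above background. The knockout mean was 71029 ± 3156 and the WT mean 116188 ± 8269 (SD, n = 3 each), a 1.63-fold lower level in knockout. The log2 difference was -0.71 (SE 0.07, 95% interval -0.87 to -0.54), with a limma adjusted p of 0.030. An exact two-sided permutation test over the 6 arrays gave 0.1, which is the smallest p that 3 arrays against 3 allow. The difference was -0.66 within slide 1 and -0.80 within slide 2. Leaving out knockout replicate 1, 2 or 3 or WT replicate 1 lost the call, with adjusted p of 0.091, 0.13, 0.13 and 0.11 and differences from -0.74 to -0.67. Since the deleted part is not stated, this probe may lie outside it, and what the remaining signal stands for was not tested.

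Mgam, the maltase-glucoamylase gene, lies on the side of higher coordinates and is known for its expression in the intestine. Its probe A_51_P291260 read 263.8, 257.7 and 233.9 in knockout and 167.0, 181.3 and 158.9 in WT. The lowest knockout array was above the highest WT array. The means were 252 ± 15.8 and 169 ± 11.3 (SD, n = 3 each), a 1.49-fold higher level in knockout, with a difference of 0.57 (SE 0.07, adjusted p = 0.041, limma). It was 0.58 within slide 1 and 0.56 within slide 2. The call was lost without knockout replicate 1, 2 or 3 or WT replicate 1 or 3, with adjusted p of 0.13, 0.17, 0.13, 0.12 and 0.052.

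The other Mgam probe, A_52_P485850, read 1303, 1142 and 1108 in knockout and 820, 852 and 1059 in WT. The groups did not overlap, but WT replicate 3 lay close to the lowest knockout array. Its difference was 0.39 (SE 0.12, adjusted p = 0.13), with 0.55 within slide 1 and 0.07 within slide 2. Averaged as 1 gene, the 2 Mgam probes gave 0.48 and an adjusted p of 0.047 over genes. With the brightest probe standing for the gene, Mgam was not called.

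AV209602, the called EST, is the 1 tested member between 44 and 45 Mb. It read 3309, 3126 and 3160 in knockout and 4326, 4190 and 4737 in WT. All 3 knockout arrays were below all 3 WT arrays. The means were 3198 ± 97.3 and 4418 ± 285 (SD, n = 3 each), a 1.38-fold lower level in knockout, with a difference of -0.46 (SE 0.06, adjusted p = 0.041, limma). It was -0.40 within slide 1 and -0.58 within slide 2. Without knockout replicate 1, 2 or 3 or WT replicate 1 the adjusted p was 0.13, 0.17, 0.16 and 0.12.

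Slc13a4 and Ptn had small p-values but did not reach the threshold. Slc13a4, a sulfate transporter gene, read 2684, 2334 and 2356 in knockout and 1929, 1981 and 1989 in WT, a difference of 0.32 (SE 0.06, adjusted p = 0.069). Ptn, which encodes the secreted growth factor pleiotrophin, read 159.1, 148.7 and 158.7 against 183.2, 219.6 and 197.7, a difference of -0.36 (SE 0.08, adjusted p = 0.072). In both of these genes the knockout and WT arrays were apart. A lack of overlap was common: it was seen in 34 of 124 tested members (27.4%) and in 30.4% of all tested probes.

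The trypsin family list held 10 probes of 8 genes, of which 7 probes of 6 genes were tested. Prss37 was the 1 member called, and of the others 4 probes lay above 0 and 2 below. Prss58 and 1700074P13Rik, which lie nearest to Prss37 among the tested family members, were below 0. Prss58 read 16110, 18692 and 18816 in knockout and 20401, 20006 and 23547 in WT, a difference of -0.25 (SE 0.09, adjusted p = 0.18). Its knockout arrays were all below its WT arrays. 1700074P13Rik read 17826, 18474 and 18575 against 19374, 20094 and 19258, a difference of -0.10 (SE 0.04, adjusted p = 0.24), again without overlap.

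The pancreatic-type trypsinogen genes further along lay above 0, and none passed the test. Try5 read 968, 1074 and 1005 in knockout and 881, 873 and 946 in WT, a difference of 0.17 (SE 0.06, adjusted p = 0.16). The Prss3 probe A_52_P178679 read 584.5, 672.8 and 630.9 against 515.0, 526.8 and 570.4, a difference of 0.23 (SE 0.07, adjusted p = 0.14). In both, the knockout arrays were all above the WT arrays. The other Prss3 probe, A_51_P394552, had 0.18 (SE 0.06, adjusted p = 0.17), with knockout replicate 1 just below WT replicate 3. Prss2 read 167.2, 275.6 and 194.2 against 155.5, 142.5 and 169.6, so that its difference of 0.42 (SE 0.19, adjusted p = 0.25) came with overlapping groups and a high knockout replicate 2. The probes of 1810009J06Rik and 2210010C04Rik were not tested: the first was above background on no array and both of the second on none of the knockout arrays.

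Markers of pancreatic acinar cells, the main source of trypsinogens, were measured beside these genes. Of 9 such markers, 7 were well above background on all arrays, Cela2a on none, and 0 of the 7 tested were called. Their summed scaled signal ran from 1081 to 1383 in knockout and from 1095 to 1369 in WT. The part of such cells in the trypsinogen values was not tested.

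Members of the trypsin family share sequence, so the longest run of bases common to any 2 of their probes, Prss37 left out, was measured. Runs shared with the Prss37 probe were not measured. The longest lay between a 2210010C04Rik probe and a Prss3 probe, with 11 shared bases, written in capitals. In every other measured pair of different genes the longest shared run was 7 bases or fewer. Cross-hybridisation by similar but not identical stretches was not tested.
2210010C04Rik A_51_P414661: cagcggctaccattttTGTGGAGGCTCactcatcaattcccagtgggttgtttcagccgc
Prss3 A_51_P394552: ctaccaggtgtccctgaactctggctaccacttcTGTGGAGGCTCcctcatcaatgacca

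The other probes within 1 Mb of the Prss37 probe were described as a group. With Prss37 left out, 33 probes were tested there, 25 of them named, for 13 genes. Their differences ran from -0.25 (Prss58) to 0.57 (Mgam), with a median of 0.02 and 20 of 33 above 0. For 27 of the 33, the 95% interval of the difference lay within 1.5-fold in either direction, and for all 33 it lay within 2-fold. The share of such intervals over all probes was not computed. An unadjusted p under 0.05 (limma) was found in 4 of 11 probes within 0.5 Mb and 7 of 22 from 0.5 to 1 Mb. Over all tested probes the share was 22.5%.

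Agk, a mitochondrial lipid kinase gene, had a difference of -0.02 (SE 0.05, 95% interval -0.13 to 0.10). Its arrays read 721, 738 and 750 in knockout and 776, 748 and 714 in WT, and the groups overlapped. Dennd11, of the DENN domain family that acts on Rab GTPases, had -0.05 (SE 0.06). The 3 probes of Ssbp1, which encodes a protein that binds single-stranded mitochondrial DNA, had 0.11, 0.11 and 0.07, with SEs of 0.06, 0.05 and 0.11. Llcfc1, which encodes a sperm protein needed for fusion with the egg, lies beyond the 1 Mb limit towards higher coordinates and had 0.11 (SE 0.05, adjusted p = 0.27). It read 91537, 95475 and 91661 in knockout and 83982, 83563 and 90992 in WT, without overlap.

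On the side of lower coordinates, Mrps33, a mitochondrial ribosome subunit gene, had 3 probes with differences of 0.02, 0.01 and 0.01. Ndufb2, a subunit of respiratory complex I, had -0.01 (SE 0.04), and Adck2, a mitochondrial kinase-like gene, -0.07 (SE 0.05). The sign of such small values moved with the scaling: Mrps33 was below 0 in 2 of 3 probes with normexp and with quantile normalization, and Dennd11 above 0 with normexp. TC1723055, a transcript cluster with no gene matched, read 166.4, 152.7 and 160.7 in knockout and 100.4, 141.6 and 112.2 in WT, a difference of 0.45 (SE 0.13, adjusted p = 0.12). It was called when WT replicate 2, its highest WT array, was left out (adjusted p = 0.038).

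Clec5a, a receptor gene of myeloid cells, was the tested gene next to Prss37 on the side of higher coordinates. It read 48.7, 55.8 and 38.9 in knockout and 38.9, 57.5 and 75.1 in WT, a difference of -0.22 (SE 0.26, 95% interval -0.85 to 0.40, adjusted p = 0.66). The groups overlapped, and the difference was 0.14 within slide 1 and -0.95 within slide 2. This probe was above background on 2 of 3 knockout arrays and passed the filter only through the WT arrays, which favours a value below 0. All 8 macrophage markers were above background on all arrays, with 0 called, a median difference of 0.20 and a summed scaled signal of 18977 to 24128 in knockout against 14924 to 19425 in WT. Their part in the Clec5a value was not tested.

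Braf, the RAF kinase gene, carried the most tested probes of any named gene near Prss37. Its 7 probes gave differences from -0.18 to 0.16, 4 above 0 and 3 below, and none was called. The A_51_P370226 probe had 0.16 (SE 0.05, adjusted p = 0.16), and A_52_P1092136 had -0.18 (SE 0.07, adjusted p = 0.20), so probes of 1 gene differed in sign. The noisiest were A_52_P39724, which read 165.2, 64.9 and 98.1 in knockout and 102.8, 81.7 and 88.8 in WT, and A_52_P595117, where WT replicate 2 read 151.6 against 76.2 and 70.5 in the other WT arrays. Without WT replicate 2 the value of A_52_P595117 turned from -0.09 to 0.26.

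Of the Braf probes, 2 overlap each other and a further probe named S79857, and the 22 bases that all 3 share are in capitals. S79857 shares an unbroken run of 34 bases with A_52_P595117 and one of 46 bases with A_52_P526945, so the 3 are not separate measurements of Braf. Their differences were 0.13, -0.09 and 0.13, with adjusted p of 0.45, 0.88 and 0.43.
S79857 A_52_P163176: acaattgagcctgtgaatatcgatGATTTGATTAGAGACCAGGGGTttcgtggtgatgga
Braf A_52_P595117: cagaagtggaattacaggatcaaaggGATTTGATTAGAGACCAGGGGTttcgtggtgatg
Braf A_52_P526945: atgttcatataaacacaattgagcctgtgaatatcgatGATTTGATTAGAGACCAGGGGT

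The T cell receptor beta locus, whose joined segments encode a chain of the T cell antigen receptor, was read by 2 probes named Tcrb-J. Both kept this name from the array's design, with no RefSeq symbol matched. They read 126.0, 137.7 and 140.6 in knockout against 168.3, 134.0 and 147.2 in WT, and 453.3, 447.6 and 467.2 against 545.5, 475.3 and 498.6. The first pair of groups overlapped and the second did not. The difference was -0.15 for each, with SEs of 0.09 and 0.06 and adjusted p of 0.40 and 0.22. Other probes on this locus kept clone or Ensembl names. T and B lymphocyte markers had 9 of 12 genes above background on all arrays, with Cd8a on none. Of the 9 tested markers 1 was called higher and 1 lower, against 0.466% and 0.569% of all tested probes. Their median difference was -0.17, and their summed scaled signal was 6085 to 6330 in knockout and 6035 to 6410 in WT. Their part in the Tcrb-J values was not tested. In whole testis, fewer cells of a type and less RNA per cell cannot be told apart.

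Receptor genes of taste and smell were mostly not tested. Of 23 probes for 22 genes, 5 probes of 4 genes were tested and 0 were called. Olfr434 and the Olfr456 probe A_51_P476449 were tested only because all WT arrays passed the filter, which favours a value below 0. Olfr434 had -0.64 and read 24.4, 30.9 and 59.3 in knockout and 49.4, 46.5 and 73.2 in WT. It was above background on 1 of 3 knockout arrays, its groups overlapped, and its adjusted p was 0.34 (SE 0.35). Olfr456 had -0.45 in the probe named above and -0.11 in its other probe, Olfr441 had -0.11, and Olfr446 had -0.13, which turned to 0.05 without WT replicate 2. None of these 5 had an unadjusted p under 0.05.

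Kinase and kinase-linked receptor genes had 16 of 20 probes tested and 0 called, 6 above 0 and 10 below. Hipk2, a kinase of the nuclear stress response, was below 0 in all 4 of its probes, at -0.08, -0.15, -0.24 and -0.23. Its A_52_P29583 probe read 2926, 3138 and 2968 in knockout and 3423, 3343 and 3826 in WT, apart from each other, with an adjusted p of 0.12. Epha1, an ephrin receptor gene, had 0.29 (SE 0.15, adjusted p = 0.32). Wee2, an oocyte kinase gene close to Prss37, was above background on no array. The tested Dgki probe, of a diacylglycerol kinase gene, had 0.06 (SE 0.20).

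Mitochondrial protein genes had 12 of 15 probes tested and 0 called, with a median of 0.02, 8 above 0 and 4 below. Gstk1, a glutathione transferase gene, had 0.18 (SE 0.07, adjusted p = 0.22), and Fmc1, an assembly factor of the ATP synthase, had -0.01 (SE 0.04).

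The list of antiviral, ubiquitin and ADP-ribose genes had 10 of 11 probes tested and 0 called, 5 on each side of 0. Trim24, a ubiquitin ligase and transcription cofactor gene, had 0.26 in its A_52_P148571 probe (SE 0.10, adjusted p = 0.19) and 0.06 and -0.02 in its other probes. Mkrn1, a ubiquitin ligase gene, had 0.11 (SE 0.04, adjusted p = 0.17) and -0.03. Parp12, an antiviral ADP-ribosyltransferase gene, had 0.12 (SE 0.07).

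Genes of transcription, chromatin and RNA had 25 of 27 probes tested, 11 above 0, 14 below and 0 called. Luc7l2, a splicing factor gene, was below 0 in all 5 tested probes, from -0.17 to -0.01. The probe at -0.17 read 988, 1034 and 1040 in knockout and 1224, 1110 and 1102 in WT, without overlap, with an adjusted p of 0.17. The 3 probes of Kdm7a, a histone demethylase gene, were above 0, at 0.03, 0.09 and 0.0039.

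Channel, transporter and membrane genes had 7 of 17 probes tested and 0 called. Tcaf1, a regulator of the cold-sensing channel TRPM8, had the lowest values, -0.50 and -0.46, at dim signals. Its A_51_P157986 probe read 34.5, 27.5 and 28.0 in knockout and 38.0, 36.6 and 49.6 in WT, apart from each other, was above background on 1 of 3 knockout arrays and had an adjusted p of 0.14. Trpv6, a calcium channel gene, read 131.5, 124.1 and 139.2 against 93.5, 136.0 and 92.1, a difference of 0.32 (adjusted p = 0.30) that was called without WT replicate 2, its highest WT array. Kel, the Kell blood group gene, read 208.1, 212.4 and 197.7 against 284.1, 227.5 and 234.2, a difference of -0.26 (SE 0.09, adjusted p = 0.17), without overlap. Of 3 tested erythroid markers 1 was called higher, against 0.466% of all tested probes, and their median difference was -0.11. They had a summed scaled signal of 18766 to 23919 in knockout and 13826 to 34729 in WT, a wider range in WT on both sides. Their part in the Kel value was not tested.

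Cytoskeletal, ciliary and trafficking genes had 13 of 17 probes tested, from -0.11 to 0.17, with 0 called. Ttc26, a gene of the transport machinery of cilia, had 0.17 (SE 0.08), 0.14 and -0.04. Zyx, a focal adhesion gene, had 0.11 (SE 0.04, adjusted p = 0.20) and Rab19, a small GTPase gene, 0.11 (SE 0.04, adjusted p = 0.20). Secreted factor and myeloid genes had 6 of 12 probes tested and 0 called, among them Ptn and Clec5a and Pip, a secretory protein gene, at 0.27 (SE 0.15, adjusted p = 0.34).

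Where a gene had several probes, they could be set beside each other. Of 21 genes with 2 or more tested probes, 11 had all probes on 1 side of 0, among them Mgam, Hipk2, Luc7l2 and Prss3. Tcaf1 is counted there too, but both of its tested probes passed the filter only through the WT arrays, which favours values below 0. Braf, Trim24 and Creb3l2 were among the genes with probes on both sides. Probes of 1 gene share their RNA and arrays and are not replicates.

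Outside the lists, 28 tested probes remained, most of them clone, EST or cluster names. AK082250 had 0.42 (SE 0.25, adjusted p = 0.38). Its knockout replicate 1 read 79.9 and the other knockout arrays 45.6 and 53.6, inside or near the WT range of 33.5 to 52.7. It was above background on 2 of 3 WT arrays and was tested only because all knockout arrays passed the filter, which favours a value above 0. 3110054G05Rik read 153.0, 196.5 and 184.3 in knockout and 271.9, 249.8 and 197.0 in WT, a difference of -0.42 (adjusted p = 0.17). Its knockout replicate 2 and WT replicate 3 were nearly equal. Klrg2, a lectin-like receptor gene, had -0.30 (adjusted p = 0.57) with overlapping groups. TC1647801 had -0.18 (SE 0.05, adjusted p = 0.14).

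Along the interval, called members lay in 2 of the 11 bins of 1 Mb: Prss37 and Mgam between 40 and 41 Mb, and AV209602 between 44 and 45 Mb. The bin medians of the difference ran from -0.10 (42 to 43 Mb, 10 tested) to 0.13 (41 to 42 Mb, 18 tested), leaving aside the bin with 1 tested probe. Between 38 and 39 Mb, 7 of 26 tested probes were above 0, with a median of -0.05. Between 39 and 40 Mb, 22 of 30 were above 0, with a median of 0.03. The difference between these stretches was not tested. With bins of 2 Mb the calls again lay in 2 bins. Bins from 42 Mb on hold few tested probes, with 5 between 43 and 44 Mb, 1 in the next and 0 of 3 in the last.

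By distance from the Prss37 probe, with that probe left out, the median size of the difference was 0.112 within 0.5 Mb (11 tested), 0.122 from 0.5 to 1 Mb (22), 0.107 from 1 to 2.5 Mb (62) and 0.0811 beyond (28). On the side of higher coordinates these medians were 0.254, 0.170, 0.166 and 0.212, over 5, 7, 21 and 6 probes. On the side of lower coordinates they were 0.0901, 0.0897, 0.0801 and 0.0663, over 6, 15, 41 and 22 probes. At each distance the side that holds the trypsin, T cell receptor and olfactory receptor genes had the higher median, as a description of these probes with no test. Noise raises the size of a difference, and noisy probes lay on both sides. Examples are Clec5a (SE 0.26) and Olfr434 (0.35) at higher coordinates, and Braf A_52_P39724 (0.33) and AK082250 (0.25) at lower ones. The part of noise in these medians was not tested.

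Over all 124 tested members the median difference was 0.01 and the median size 0.107, against -0.0024 and 0.0899 over all tested probes and -0.0039 and 0.0963 on the rest of chromosome 6. There were 65 members above 0 and 59 below, and the tested members reached from -0.71 to 0.57. Under 0.1 in size were 57 of the 124 (46.0%), against 53.9% of all tested probes. An unadjusted p under 0.05 was found in 29 members (23.4%), against 22.5% of all probes. Differences over 0.5 in size were found in 4 members (3.23%, against 2.80%): Prss37, Mgam, Olfr434 and 1 probe of Tcaf1, of which the last 2 passed the filter through the WT arrays only. The median SE of the members was 0.069, against 0.0646 over all probes. The median of the members was 0.01 within slide 1 and 0.02 within slide 2. The members' median level had an SD of 0.027 over the 3 WT arrays. This is a spread of single arrays and does not measure the spread of those differences. For 100 of the 124, the 95% interval lay within 1.5-fold, and for 119 within 2-fold.

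The number of arrays limits what could be seen. A called difference in the interval was at least 0.46 in size, while the smaller differences of Slc13a4 and Ptn narrowly missed the threshold. A probe that missed the threshold is not thereby shown to be equal in both genotypes.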

How the data were processed

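Total RNA of 6 testes was amplified, labelled with Cy3 and hybridised to 1-colour Agilent-014868 mouse arrays. Scanner outputs with intensity values were deposited. Their software was Agilent Feature Extraction, version 10.7.3.1 per the file headers and 10.7 in the submitters' processing notes. Background had been subtracted from the processed signal, per the file headers. A deposited log2 table, its steps unstated, served as an alternative. Its column medians were 7.73, and its r against the log2 processed signals was at least 0.99987. Flags, sequences and mm9 coordinates are other columns of the deposited files, used as they stood.

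From each log2 processed signal the 75th percentile of its array was subtracted, and spots of a probe were averaged. Control spots and 86 to 159 outlier spots per array were left out, and 0 spots were saturated. To be tested, a probe had to have all unflagged spots well above background in at least 1 genotype and 2 or more values in both. Probes were named through accessions (123 members), symbols (30) or synonyms (5) of a GRCm38.p6 RefSeq table. The comparison used lmFit and eBayes of limma 3.58.1 in R 4.3.3, tested on simulated data. Adjusted p-values come from this fit unless a setting is named. The design text counts mice, and arrays stand for separate animals.

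The rule for named genes took Prss37, tested named members within 1 Mb, called members, the 5 largest rises and falls, up to 3 members of smallest p per list and the member of smallest p per 1 Mb bin. Other members are named as examples, chosen after their values were seen. The interval, the gene lists and the rule were chosen with earlier results of these data known. Alternatives covered background, scaling, filters, probe rules, variance fitting, weights, blocks, slides, left-out arrays and the threshold. The values of 1 tested member are not reported here.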

Additional observations from a re-analysis of the deposited data

How the results depend on the processing

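Under every alternative run, the median difference over members stayed above 0, between 0.0062 and 0.025, and the 3 called members kept their direction. The count of called members was 3, and it became 0 without a filter on dim probes, with the slide as a block and within slide 1. It was 5 under a variance trend with robust fitting (4.03%, against 5.40% of all probes), 6 at a threshold of 0.1 (4.84%, against 8.00%) and 0 to 5 with 1 array left out. With array weights it was 4 (3.23%, against 5.05%). In these 3 named settings the share of members was below that of all probes, the reverse of the 2.42% against 1.04% reported. Without the probes of Prss37 and Mgam, an alternative chosen after seeing the data, it was 1 of 121 (0.826%, against 1.04%).

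Same-numbered arrays deviated together at r of -0.05, -0.03 and 0.14. These 3 values cannot show whether the numbers pair the animals, and the labels do not say. With the replicate number as a block, called probes over the array went to 0 higher and 3 lower, called members to 0, and Prss37 to an adjusted p of 0.15 at -0.71.

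Prss37 lost its call without the filter (-0.71, adjusted p = 0.11), with the slide as a block (-0.71, 0.053) and within slide 1 (-0.66, 0.13), and ran from -0.76 to -0.66 with 1 array left out.

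Over the array, 132 probes were called higher and 161 lower. The counts were 250 higher with normexp, 258 with quantile normalization, 248 in the deposited table and 230 for the brightest probe per gene. They were 0 and 5 without the filter, 282 and 284 with the filter on all 6 arrays, 843 and 684 under the variance trend, 783 and 645 after weighting arrays, 11 and 20 when the slide was a block, 3 and 16 within slide 1, and 1146 and 1119 at a threshold of 0.1. With 1 array left out they ran from 0 to 457 and from 2 to 332. The causes were not tested.

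Small, uncalled differences changed sign. With normexp they were 0.0024 in Braf A_52_P595117, -0.020 and -0.0030 in Mrps33 and 0.027 in Dennd11. With quantile normalization they were -0.0022 and -0.0014 in Mrps33, and -0.0021 with the deposited table. With array weights they were 8.7e-05 in Ndufb2, -0.017 and -0.042 in Braf and -0.0025 and -0.023 in Mrps33. Within slide 1 they were 0.010 in Ndufb2, -0.14 in Braf A_51_P373970, -0.0087 in Mrps33, 0.0018 in Dennd11 and 0.14 in Clec5a. With 1 array left out the ranges were -0.026 to 0.0051 in Ndufb2, -0.19 to 0.49, -0.29 to 0.26 and -0.13 to 0.11 in 3 Braf probes, -0.014 to 0.047, -0.031 to 0.025 and -0.0080 to 0.039 in Mrps33, -0.016 to 0.18 in Ssbp1 A_51_P334504, -0.049 to 0.012 in Agk and -0.33 to 0.053 in Olfr446.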
